A study of Homo sapiens with 30 samples.

Results

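Imprinted genes are expressed mainly from the copy inherited from 1 parent, and this account follows 32 of them in 5 T-cell leukaemia lines treated with decitabine. The 32 were taken from a list of gene symbols and belong to 16 imprinted domains; all 32 were matched to an identifier, out of 60554 identifiers counted. Of the 32, 18 had enough reads to be tested among 15081 genes, 14 did not, and 4 of those 14 had 0 reads in every library.

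Loucy, PER-117, PEER, MOLT-16 and TALL-1 are established human lines, each derived from an acute lymphoblastic leukaemia of T cells. Every line has 3 libraries of cells given 1 µM decitabine for 48 h and 3 of cells given the vehicle DMSO for 48 h, which makes 10 groups and 30 libraries. Each line is a single established line, and no other allele or agent is stated in the labels for any group. Whether the 3 libraries of a group came from separate cultures is not stated, so the p-values measure the spread between these libraries, which may be technical.

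Imprinted genes sit in domains governed by a control region whose DNA is methylated on the copy from 1 parent and not on the other. Paternally expressed long noncoding RNAs such as KCNQ1OT1 silence neighbouring genes on their own chromosome, while other control regions act through insulator binding or through the promoter itself. Decitabine is a cytidine analogue that is built into DNA, traps DNA methyltransferases and so lowers CpG methylation as cells divide. DNA methylation and the parental origin of the RNA were not measured here, and in bulk libraries more cells with a transcript and more transcript per cell cannot be told apart.

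The promoter windows below run from 250 bases before to 50 bases after the annotated start, 300 bases in all, from RefSeq on GRCh38.p14. They are shown because decitabine acts at CpG dinucleotides, which are in capitals, and each is written 5′ to 3′ on the gene's own strand. PLAGL1, NDN, INPP5F and BLCAP are members with higher RNA after decitabine, and MEG3, whose RNA was read in decitabine libraries and in none of the DMSO libraries, was added after its values were seen. The windows are chr6:144064550-144064849 (minus strand) for PLAGL1, chr15:23687256-23687555 (minus strand) for NDN, chr10:119726246-119726545 (plus strand) for INPP5F, chr20:37527827-37528126 (minus strand) for BLCAP and chr14:100825858-100826157 (plus strand) for MEG3.
PLAGL1: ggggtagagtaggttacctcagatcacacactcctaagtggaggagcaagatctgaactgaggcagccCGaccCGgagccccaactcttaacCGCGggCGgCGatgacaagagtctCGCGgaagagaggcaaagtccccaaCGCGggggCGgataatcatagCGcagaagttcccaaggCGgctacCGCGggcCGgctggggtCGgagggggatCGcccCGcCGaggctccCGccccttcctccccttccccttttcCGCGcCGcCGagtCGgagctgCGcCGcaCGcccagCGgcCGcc
NDN: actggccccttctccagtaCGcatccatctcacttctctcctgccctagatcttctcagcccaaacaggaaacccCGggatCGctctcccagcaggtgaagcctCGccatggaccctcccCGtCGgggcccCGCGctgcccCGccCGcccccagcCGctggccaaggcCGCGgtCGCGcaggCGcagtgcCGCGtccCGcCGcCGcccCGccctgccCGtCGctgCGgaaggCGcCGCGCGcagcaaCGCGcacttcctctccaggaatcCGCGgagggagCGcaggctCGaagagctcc
INPP5F: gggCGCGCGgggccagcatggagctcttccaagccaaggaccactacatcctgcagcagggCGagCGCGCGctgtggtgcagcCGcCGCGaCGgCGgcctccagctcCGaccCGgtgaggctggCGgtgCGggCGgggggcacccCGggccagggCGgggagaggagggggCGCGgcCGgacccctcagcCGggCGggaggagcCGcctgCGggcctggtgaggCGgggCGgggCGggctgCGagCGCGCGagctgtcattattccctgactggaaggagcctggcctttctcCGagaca
BLCAP: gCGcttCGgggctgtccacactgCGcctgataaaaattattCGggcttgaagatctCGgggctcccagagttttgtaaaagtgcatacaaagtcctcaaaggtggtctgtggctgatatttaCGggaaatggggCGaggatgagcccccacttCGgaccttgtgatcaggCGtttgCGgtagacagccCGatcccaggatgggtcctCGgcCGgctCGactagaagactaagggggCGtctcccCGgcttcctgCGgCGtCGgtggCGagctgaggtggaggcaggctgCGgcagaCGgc
MEG3: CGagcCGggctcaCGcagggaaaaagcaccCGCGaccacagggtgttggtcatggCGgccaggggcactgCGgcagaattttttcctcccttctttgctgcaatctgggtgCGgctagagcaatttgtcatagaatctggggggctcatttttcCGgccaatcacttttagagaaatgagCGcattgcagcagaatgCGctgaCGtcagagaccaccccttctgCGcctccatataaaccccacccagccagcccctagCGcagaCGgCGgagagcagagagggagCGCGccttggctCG

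CpG dinucleotides numbered 31 in the PLAGL1 window, 35 in NDN, 34 in INPP5F, 22 in BLCAP and 19 in MEG3. RefSeq windows were matched for 20 of the 32 members, with a median of 18.5 CpG against 14 over all 27305 promoter windows, whose quartiles were 3 and 28. The lowest member count was 6, in H19 and RTL1, and the highest was 44, in GRB10. The letters TGCCGC, the core motif bound by the imprint-protecting zinc finger protein ZFP57, were searched on both strands and hold a CpG themselves. They were present in 10 of the 20 member windows (50%) and in 16.67% of all windows, and among the sequences printed NDN, BLCAP and MEG3 each had 1 match and PLAGL1 and INPP5F had 0. A gene with several starts, such as PLAGL1, has 1 window here, so a start elsewhere in the gene is not covered. Windows were taken 1 per symbol and not by which start is imprinted. The other members, IGF2, CDKN1C, KCNQ1, KCNQ1OT1, PHLDA2, SLC22A18, DLK1, PEG3, ZIM2, PEG10, SGCE and NNAT, were not matched.

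**Figure D1:**
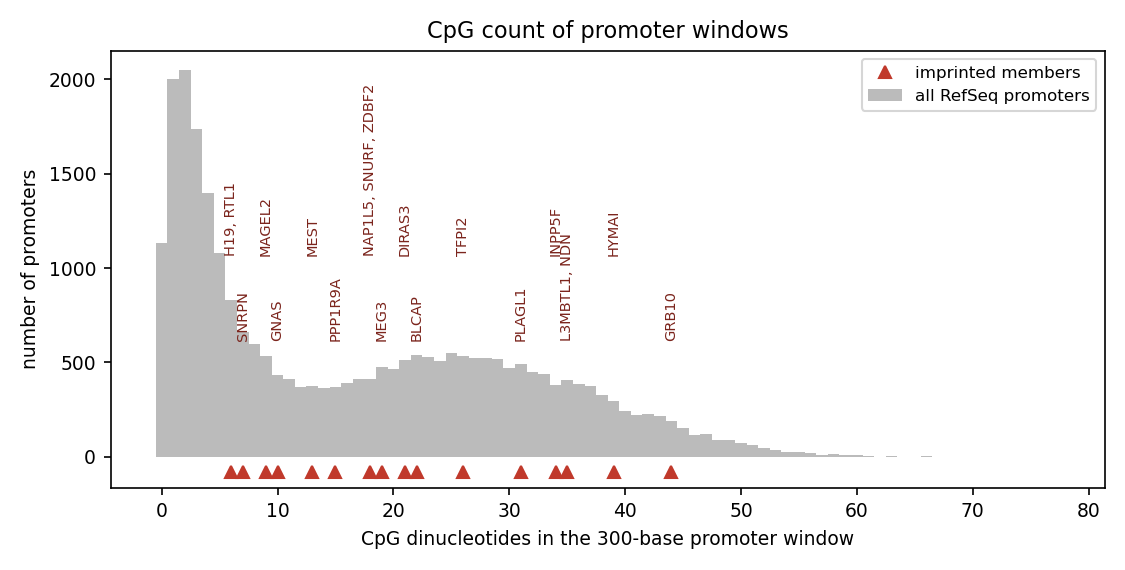
Grey bars count all RefSeq promoter windows of 300 bases (y axis) by their number of CpG dinucleotides (x axis); red triangles and names mark the 20 members with a window. Members lie between 6 CpG (H19 and RTL1) and 44 CpG (GRB10), on both sides of the median of 14 over all windows.

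Each library held 2197347 to 15391979 reads on the strand of a gene. All 8 T-cell markers had reads in all 10 groups, with a summed level of 335 to 2673 CPM (reads scaled to a common library size). Only DMSO libraries were checked for transcripts of another line, which were present in 3 of them. Decitabine libraries were not tested for such transcripts. Of 19 genes restricted to PEER, with at least 10 CPM in its other DMSO libraries and at most 0.5 CPM in those of the other lines, all 19 had reads in TALL-1 DMSO replicate 3 at a median of 15.5% of their PEER level and in MOLT-16 DMSO replicate 3 at 21.4%. PEER DMSO replicate 2 held 16 of 17 genes restricted to MOLT-16 at a median of 5.01%. The 2 genes restricted to TALL-1 had a median of 8.30% in PEER DMSO replicate 2 and 3.71% in MOLT-16 DMSO replicate 3. Where leaving out these 3 libraries, called the mixed libraries from here on, changed a member's call, the value without them follows.

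Of the 32 members, 9 were called higher with decitabine in at least 1 line and 0 were called lower. CDKN1C and PHLDA2, neighbours in the KCNQ1OT1 domain, rose in PEER, MOLT-16, Loucy and PER-117, DLK1 rose in 3 lines, PLAGL1 in 2, and KCNQ1OT1, PEG10, NDN, INPP5F and BLCAP in 1 line each. The threshold for a call was an adjusted p under 0.05, from the quasi-likelihood F test of edgeR. The p-values were adjusted by the Benjamini-Hochberg method over all genes tested, 15081 in the fit of the 10 groups. Every adjusted p here is of that kind unless another tool is named. Other settings were adjusted over the genes tested there, such as 15741 without the mixed libraries and 13830 with the lines as replicates. PER-117 had 6 members called higher where 8.67% of all genes tested were higher, Loucy had 4 against 10.6%, PEER had 4 against 3.54%, MOLT-16 had 3 against 2.19%, and TALL-1 had 1 against 6.74%. No member was called lower, against 0.961% of all genes in PEER, 6.12% in TALL-1, 1.01% in MOLT-16, 4.13% in Loucy and 3.16% in PER-117. The TALL-1 count is no more than the background share of the 18 tested members. Genes such as PHLDA2, DLK1, PEG10 and NDN passed the read filter through the groups in which they were high. For this reason these counts are a description and support nothing beyond the values.

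The median log2 change over the tested members was 0.71 in PER-117, 0.43 in Loucy, 0.30 in PEER, 0.29 in MOLT-16 and -0.02 in TALL-1. Over all genes tested it was 0.05 in PER-117, 0.03 in Loucy, -0.02 in PEER, -0.01 in MOLT-16 and 0.00 in TALL-1. Without the mixed libraries, which were identified from these data, the members called numbered 9 higher in PER-117 (11.9% of all genes), 6 higher in Loucy (14.5%), 6 higher in PEER (4.7%), 4 higher in MOLT-16 (9.78%) and 1 higher in TALL-1 (7.46%). In that setting 2 members were called lower in MOLT-16 (7.93% of all genes), GRB10 with a log2 change of -0.78 and SNRPN with -0.60.

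**Figure D2:**
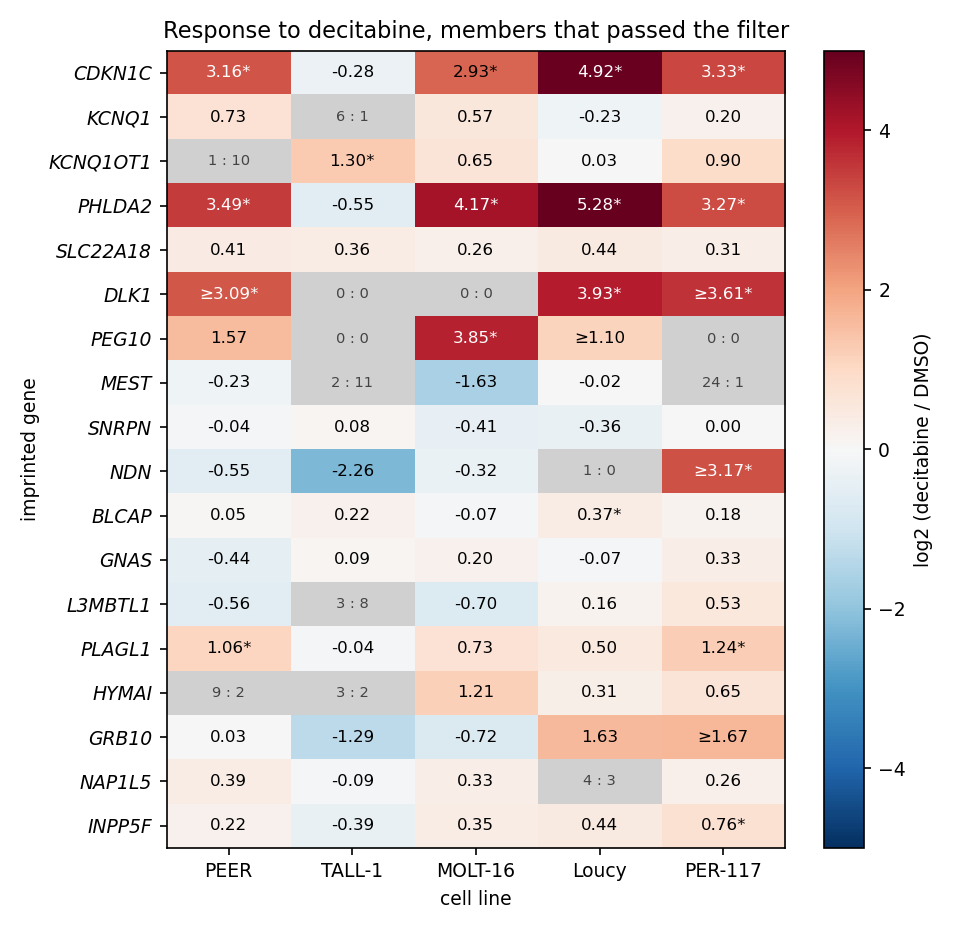
Each cell gives the log2 ratio of decitabine to DMSO for 1 of the 18 tested members (rows) in 1 line (columns), red for higher and blue for lower in decitabine; * marks an adjusted p under 0.05, ≥ a lower bound against 3 reads where DMSO had 0 reads, and grey cells a group with 3 reads or fewer, with the reads in decitabine and DMSO. CDKN1C and PHLDA2 are dark red in 4 lines and near white in TALL-1, at -0.28 and -0.55 (0.16 and 0.56 without the mixed libraries, uncalled in both settings).

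The KCNQ1OT1 domain on chromosome 11 holds CDKN1C (chr11:2883213-2885773), a maternally expressed inhibitor of cyclin-dependent kinases, PHLDA2 (chr11:2928273-2929455), a maternally expressed gene that restrains placental growth, the potassium channel gene KCNQ1, the transporter gene SLC22A18, and the paternally expressed noncoding RNA KCNQ1OT1 (chr11:2608328-2699994), which runs antisense to KCNQ1. These and all gene positions below are from GENCODE 29 on GRCh38.

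CDKN1C stood at 16.1, 14.8 and 15.2 CPM in the decitabine libraries of Loucy, against 0.658, 0.350 and 0.478 CPM in DMSO. The log2 change was 4.92 ± 0.47 (SE), the steepest of the 4 called, with an adjusted p of 1.62e-08. In PER-117 the values were 32.6, 31.9 and 37.7 CPM in decitabine and 2.35, 3.44 and 4.32 CPM in DMSO. All decitabine libraries of both lines lay above all DMSO libraries, and in PER-117 the log2 change was 3.33 ± 0.39 (adjusted p = 5.04e-07). MOLT-16 gave 95.6, 62.1 and 35.5 CPM with decitabine and 11.5, 12.2 and 2.77 CPM with DMSO. This was the line with the highest level under either treatment and with the widest spread among decitabine libraries, at a log2 change of 2.93 ± 0.39 (adjusted p = 2.80e-05). In PEER the libraries gave 5.44, 6.48 and 6.99 CPM with decitabine and 0.157, 1.91 and 0 CPM with DMSO, a log2 change of 3.16 ± 0.63 (adjusted p = 0.00279). Of the 11 DMSO reads in PEER, 10 were in the mixed replicate 2, and without the mixed libraries the log2 change was 5.89. In the fit of the PEER libraries alone the PEER change was 3.18 with an adjusted p of 0.0671. TALL-1 had 7 CDKN1C reads over 3 decitabine libraries and 9 over 3 DMSO libraries, means of 0.507 and 0.595 CPM, and no call (log2 -0.28 ± 1.08, adjusted p = 0.916).

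PHLDA2 followed the same division of lines. In Loucy it stood at 10.3, 7.84 and 8.45 CPM in decitabine, against 0.263, 0.292 and 0.0683 CPM in DMSO, a log2 change of 5.28 ± 0.48 (adjusted p = 8.33e-09). MOLT-16 had 22.1, 12.7 and 23.7 CPM in decitabine and 1.79, 0.596 and 0.853 CPM in DMSO, a log2 change of 4.17 ± 0.49 (adjusted p = 5.00e-06). The groups of both lines were far apart relative to their spread. In PEER the values were 8.89, 12.7 and 12.4 CPM in decitabine and 0.630, 2.10 and 0.207 CPM in DMSO (log2 3.49 ± 0.48, adjusted p = 6.10e-05); the mixed replicate 2 held 11 of the 16 DMSO reads, and without the mixed libraries the log2 change was 4.60. PER-117 reached only 1.92, 1.80 and 2.95 CPM in decitabine, against 0.335, 0.104 and 0.216 CPM in DMSO (log2 3.27 ± 0.62, adjusted p = 4.54e-04). PER-117 thus had a lower PHLDA2 level in decitabine than the other 3 responding lines, while its CDKN1C level was above that of Loucy and PEER. TALL-1 gave 0.230, 0.599 and 0.765 CPM in decitabine and 0.644, 0 and 1.43 CPM in DMSO, with overlapping groups and no call (log2 -0.55 ± 0.84, adjusted p = 0.737). The uncalled log2 changes of TALL-1 were above 0 without the mixed libraries, at 0.56 for PHLDA2 and 0.16 for CDKN1C.

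The responses of the 5 lines were compared in a single test with 4 degrees of freedom, and they differed for 3 of the 18 members tested, where 13.6% of all genes did. PHLDA2 was 1 of them (adjusted p = 0.00440) and CDKN1C another (adjusted p = 0.0283). Pairs of lines were then compared, a step chosen after seeing the data. The PHLDA2 response of TALL-1 was below that of PEER by a log2 difference of 4.03 ± 1.00 (adjusted p = 0.0225; 3.11% of all genes differed in this pair). TALL-1 minus MOLT-16 gave a difference in log2 response of -4.72 ± 1.02 (adjusted p = 0.00641; 5.18% of all genes), TALL-1 minus Loucy -5.83 ± 1.04 (adjusted p = 6.55e-04; 8.17%) and TALL-1 minus PER-117 -3.82 ± 1.08 (adjusted p = 0.0308; 6.58%). Without the mixed libraries, of which TALL-1 DMSO replicate 3 is 1, only the difference from Loucy passed for PHLDA2 (-4.72 ± 1.45, adjusted p = 0.0328), while those from PEER, MOLT-16 and PER-117 did not, at adjusted p of 0.140, 0.102 and 0.248. For CDKN1C the TALL-1 response differed from that of Loucy (-5.20 ± 1.30, adjusted p = 0.0117), and the differences from PEER, MOLT-16 and PER-117 did not pass, at adjusted p of 0.169, 0.115 and 0.0719. The CDKN1C difference from Loucy without the mixed libraries was -4.76 ± 1.34 (adjusted p = 0.0187) and that from PEER was just under the threshold. In that setting CDKN1C responses also differed between lines with a call. MOLT-16 minus Loucy gave -2.48 ± 0.45 (adjusted p = 3.53e-04, 15.4% of all genes). PEER minus MOLT-16 gave 3.45 ± 1.06 (adjusted p = 0.0464, 6.1%) and Loucy minus PER-117 1.59 ± 0.44 (adjusted p = 0.0222, 7.15%). With all libraries these did not pass, at adjusted p of 0.0743, 0.931 and 0.188. Without the mixed libraries the responses differed for CDKN1C (adjusted p = 3.27e-04) and PHLDA2 was no longer called, among 7 members where 27.8% of all genes differed; the others were GRB10, INPP5F, KCNQ1, MEST, NDN and PLAGL1.

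KCNQ1OT1 itself had its call in another line than CDKN1C and PHLDA2. Its response was not shown to differ between lines (adjusted p = 0.0977, and 0.0523 without the mixed libraries). KCNQ1OT1 was called higher only in TALL-1, where neither of the others was called. There it stood at 17.2, 20.8 and 26.8 CPM in decitabine, against 9.66, 13 and 3.94 CPM in DMSO, with no overlap (log2 1.30 ± 0.38, adjusted p = 0.0210). The lowest of those DMSO values is from a mixed library. Without TALL-1 DMSO replicate 3 the log2 change was 0.91 and the call was lost (adjusted p = 0.137), and the call was also lost without decitabine replicate 2 (0.0505) or decitabine replicate 3 (0.0844); without all 3 mixed libraries it was called at the same 0.91 (adjusted p = 0.0356). In PER-117 KCNQ1OT1 was at 35.1, 31.1 and 29.3 CPM in decitabine and 17.1, 16.4 and 17.7 CPM in DMSO. These groups did not overlap either, but the change did not pass (log2 0.90 ± 0.31, adjusted p = 0.0609), and it was called without the mixed libraries (adjusted p = 0.00227). In Loucy, the line with the most KCNQ1OT1, the means were 75.3 ± 21.0 CPM in decitabine and 73.6 ± 6.26 CPM in DMSO (SD, n = 3 each). In MOLT-16 they were 9.12 ± 4.69 and 6.53 ± 4.70 CPM. PEER, where CDKN1C and PHLDA2 rose, had 1 KCNQ1OT1 read over the decitabine libraries and 10 over the DMSO libraries, 7 of them in the mixed replicate 2.

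KCNQ1 and SLC22A18 were not called in any line. KCNQ1 averaged 50.2 CPM in decitabine and 58.8 CPM in DMSO in Loucy, 40.7 and 28.4 CPM in MOLT-16, and 23.8 and 20.8 CPM in PER-117. In PEER and TALL-1 KCNQ1 was nearly silent. TALL-1 had 6 reads in decitabine and 1 in DMSO, a ratio of 6.29 with a counting interval of 0.763 to 289. PEER had 15, 12 and 2 reads in its 3 decitabine libraries and 0, 16 and 0 in DMSO, where all 16 lay in the mixed replicate 2, and KCNQ1 was called higher there without the mixed libraries (adjusted p = 0.0178). SLC22A18 lay between 4.54 and 21.4 CPM in the DMSO means and its log2 changes were 0.26 to 0.44.

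**Figure D3:**
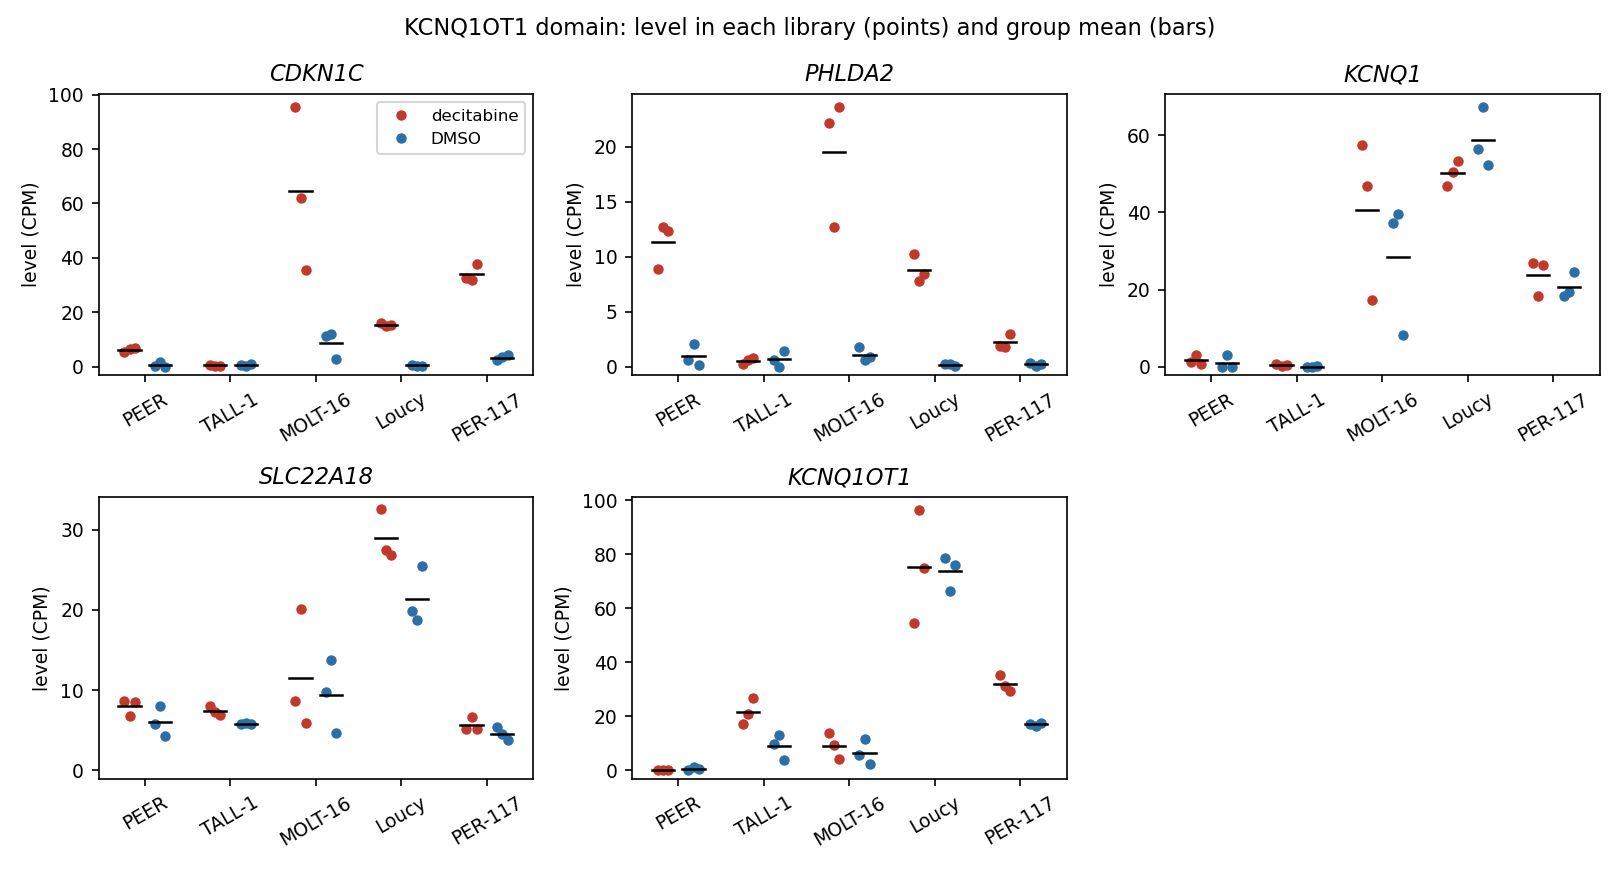
CPM (y axes) of the 5 genes of the KCNQ1OT1 domain in each library, decitabine in red left of DMSO in blue, by line; bars are means of 3 libraries. CDKN1C and PHLDA2 separate the treatments in every line but TALL-1, while KCNQ1OT1 separates them in TALL-1 and PER-117 and stays close to 0 in PEER.

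The DLK1-MEG3 domain on chromosome 14 holds the paternally expressed DLK1 (chr14:100725705-100738224), a membrane ligand related to NOTCH ligands, the maternally expressed noncoding RNA MEG3 (chr14:100779410-100861031) and RTL1, a gene derived from a retrotransposon. DLK1 had 13, 10 and 5 reads in the decitabine libraries of PEER and 0 reads in its 3 DMSO libraries, which is at least 8.51-fold higher against a floor of 3 reads over the group (adjusted p = 0.00346). In PER-117 it had 17, 16 and 13 reads in decitabine and 0 in DMSO, at least 12.2-fold higher (adjusted p = 3.15e-04). Both lines thus went without a DLK1 read in DMSO and had reads in every decitabine library. Loucy had 4.12, 2.65 and 3.70 CPM in decitabine and 0.132, 0.117 and 0.410 CPM in DMSO, a log2 change of 3.93 ± 0.49 (adjusted p = 2.61e-05). TALL-1 and MOLT-16 had 0 DLK1 reads under both treatments. The DLK1 response was not shown to differ between lines (adjusted p = 0.398).

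MEG3 had 34 reads, all in decitabine libraries: 16 in Loucy, 9 in PER-117, 4 in PEER, 3 in TALL-1 and 2 in MOLT-16. Reads were found in 12 of 15 decitabine libraries and in 0 of 15 DMSO libraries. MEG3 did not pass the read filter, and in the fit without a filter it was called in Loucy (adjusted p = 0.0125) and in no other line. The unfiltered edgeR fit with the lines as replicates also called MEG3 (adjusted p = 0.00693). The share of all genes called without a filter is not given here, so these MEG3 calls are a description only. TALL-1 and MOLT-16 had MEG3 reads in decitabine but no DLK1 reads. RTL1 had 0 reads in every library.

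Necdin (NDN, chr15:23685400-23687330), a paternally expressed growth suppressor in the SNRPN domain on chromosome 15, was silent in PER-117 DMSO and present in decitabine. It had 19, 8 and 7 reads in the PER-117 decitabine libraries and 0 reads in DMSO, at least 9.02-fold higher (adjusted p = 0.00329). No other line had a call for NDN. In TALL-1 it stood at 0.230, 0.599 and 0 CPM in decitabine and 2.15, 0.246 and 2.69 CPM in DMSO, groups that overlap (adjusted p = 0.0876). PEER had means of 1.04 and 1.48 CPM and MOLT-16 of 1.99 and 2.54 CPM in decitabine and DMSO, and Loucy had 1 read and 0 reads. NDN responses differed between lines (adjusted p = 0.0102), and that of PER-117 differed from those of TALL-1 (adjusted p = 0.00246), PEER (0.0261, where 2.02% of all genes differed) and MOLT-16 (0.0325, where 1.84% did). SNRPN, a splicing factor gene of the same domain, was among the most abundant members, at 285 to 441 CPM in the DMSO means, and was not called in any line, with log2 changes of -0.41 to 0.08; without the mixed libraries it was called lower in MOLT-16 (log2 -0.60, adjusted p = 0.0171). Of its last 500 exonic bases, 64.8% are shared with other genes on its strand, and for SNURF, which is read from the same transcripts, 98%; the files tally reads that overlap 2 genes apart as ambiguous, so the SNRPN level and the 127 reads of SNURF are uncertain. MAGEL2, next to NDN, had 11 reads in Loucy decitabine and 0 in Loucy DMSO, and at most 1 read in any other group.

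PEG10 (chr7:94656325-94669695), a paternally expressed gene derived from a retrotransposon, rose in MOLT-16, with 5.88, 8.32 and 8.68 CPM in decitabine and 0.511, 0.596 and 0.426 CPM in DMSO. The log2 change was 3.85 ± 0.63 (adjusted p = 0.00166), and the groups stood well apart. In PEER the values were 1.72, 3.37 and 2.54 CPM in decitabine and 0.157, 1.91 and 0.413 CPM in DMSO, with overlap and no call (log2 1.57 ± 0.59, adjusted p = 0.157). The mixed replicate 2 held 10 of the 13 PEER DMSO reads, and without the mixed libraries PEG10 was called in PEER (log2 3.10, adjusted p = 0.0118). Loucy had 2 reads in each decitabine library and 0 in DMSO (adjusted p = 0.0804; called without the mixed libraries, adjusted p = 0.0358), and TALL-1 and PER-117 had 0 reads. The PEG10 response was not shown to differ between lines (adjusted p = 0.325). The other members of the PEG10 domain were scarcely read: SGCE had 12 reads in decitabine and 3 in DMSO libraries, PPP1R9A had 1 and 1, and TFPI2 had 0.

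PLAGL1 (chr6:143940300-144064599), a paternally expressed zinc finger transcription factor that slows cell growth, rose in PER-117 and PEER. In PER-117 it stood at 30.9, 35.8 and 31.6 CPM in decitabine, against 12.9, 14.3 and 14.6 CPM in DMSO, a log2 change of 1.24 ± 0.23 (adjusted p = 4.57e-04) with no overlap. In PEER the values were 11.7, 14.5 and 6.35 CPM in decitabine and 3.62, 9.16 and 3.31 CPM in DMSO. These groups overlap through the mixed DMSO replicate 2, with a log2 change of 1.06 ± 0.29 (adjusted p = 0.0353) that was 1.70 without the mixed libraries (adjusted p = 3.03e-04). The PEER call was lost without decitabine replicate 1 (adjusted p = 0.142), decitabine replicate 2 (0.172), DMSO replicate 1 (0.168) or DMSO replicate 3 (0.140), at log2 changes of 0.82 to 0.99. In MOLT-16, with means of 49.0 and 29.5 CPM, and in Loucy, with 33.6 and 23.8 CPM, all decitabine libraries lay above the DMSO libraries, but neither change passed (adjusted p = 0.0893 and 0.137). Both were called without the mixed libraries, MOLT-16 at a log2 change of 0.61 (adjusted p = 0.0423) and Loucy at 0.49 (adjusted p = 0.0329). TALL-1 averaged 5.26 CPM in decitabine and 5.35 CPM in DMSO. The PLAGL1 response was not shown to differ between lines (adjusted p = 0.125), but it did without the mixed libraries (adjusted p = 0.00762). HYMAI, a noncoding RNA read from within PLAGL1, was not called, with 115 and 95 reads in Loucy and 73 and 36 in PER-117 in decitabine and DMSO.

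Of the other genes with a call, INPP5F (chr10:119726042-119829278), an inositol phosphatase gene with an imprinted short isoform, rose modestly in PER-117. It stood there at 13.2, 9.76 and 10.9 CPM in decitabine and 6.37, 5.43 and 8.20 CPM in DMSO (log2 0.76 ± 0.21, adjusted p = 0.0129). The PER-117 groups did not overlap, but the call was lost without decitabine replicate 1 (adjusted p = 0.0926), DMSO replicate 1 (0.0577) or DMSO replicate 2 (0.101). TALL-1 averaged 15.1 CPM in decitabine and 20.0 CPM in DMSO, with no call (adjusted p = 0.235), and the difference between the responses of the lines did not pass (adjusted p = 0.0594; called without the mixed libraries, adjusted p = 0.0370). BLCAP (chr20:37492472-37527931), a gene with imprinted isoforms around NNAT, was at 65.5, 56.8 and 66.8 CPM in Loucy decitabine and 45.4, 49.1 and 51.5 CPM in Loucy DMSO. This was the smallest call, a log2 change of 0.37 ± 0.13 (adjusted p = 0.0438), and it was lost on leaving out any of 24 of the 30 libraries, at adjusted p of 0.0501 to 0.165. The BLCAP response was not shown to differ between lines (adjusted p = 0.351). NNAT, a paternally expressed brain proteolipid gene within a BLCAP intron, had 41 reads in decitabine libraries and 7 in DMSO libraries. Its largest counts were 15 against 1 in PEER, a ratio of 13.7 with a counting interval of 2.10 to 576, and 12 against 0 in PER-117, and it did not pass the read filter.

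**Figure D4:**
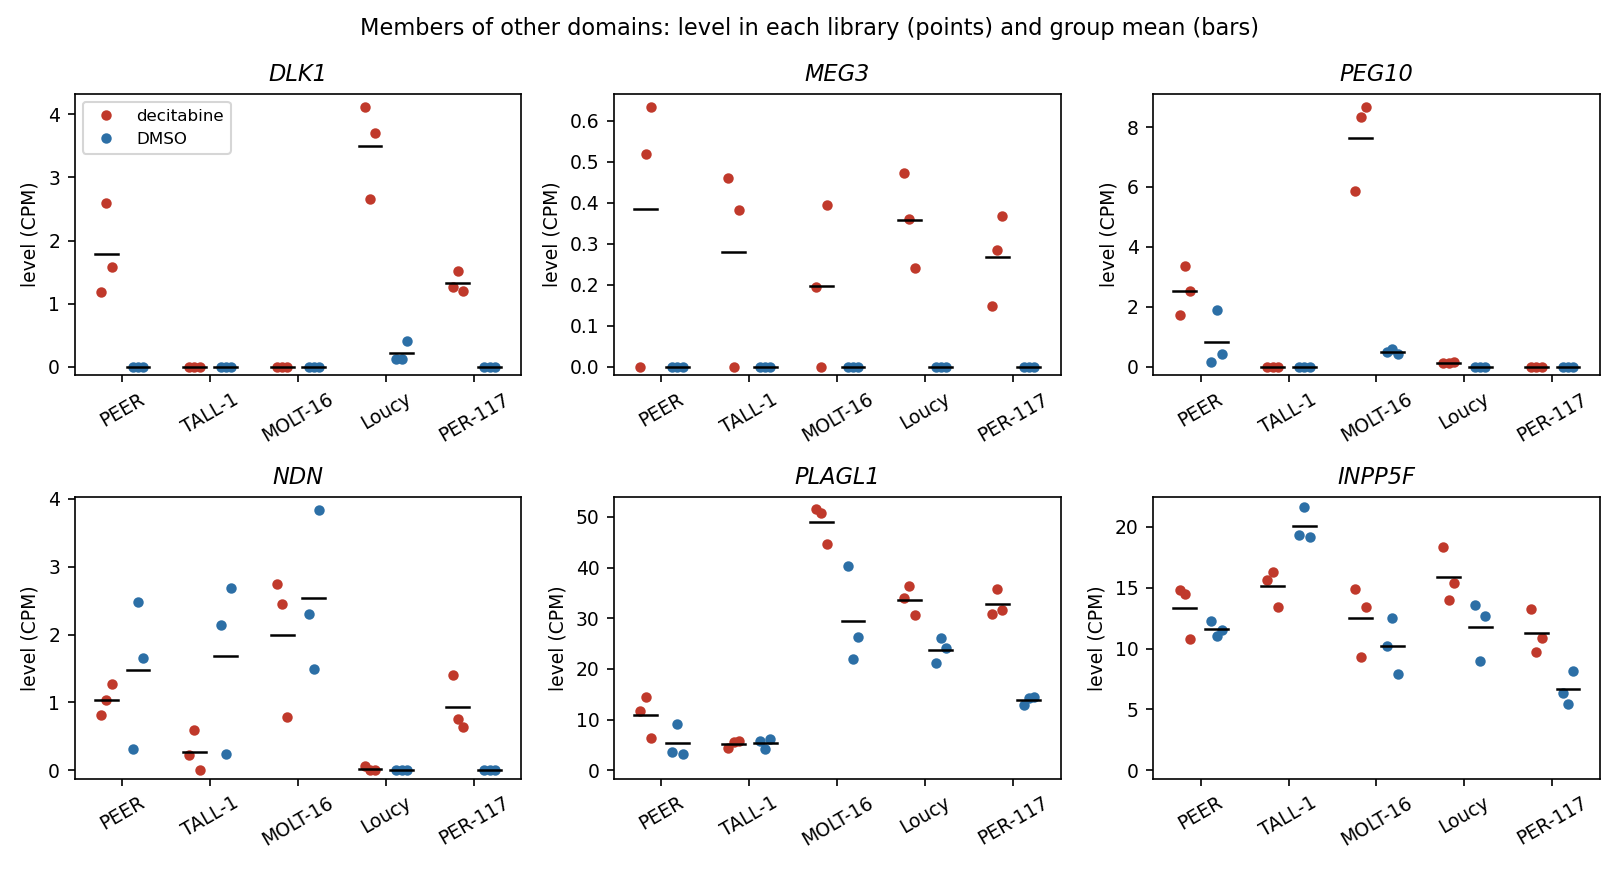
CPM (y axes) of 6 members outside the KCNQ1OT1 domain in each library, decitabine in red left of DMSO in blue, by line; bars are means of 3 libraries. MEG3 is above 0 in decitabine libraries of all 5 lines and at 0 in every DMSO library, whereas DLK1 is above 0 in PEER, Loucy and PER-117, PEG10 mainly in MOLT-16 and PEER, and NDN appears with decitabine in PER-117.

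Of 13 members that reached 5 CPM in the DMSO mean of a line, 8 had no call in any line: GNAS, GRB10, KCNQ1, L3MBTL1, MEST, NAP1L5, SLC22A18 and SNRPN. That is 61.5% of the 13, near the 66.8% of all tested genes at that level that had no call. Without the mixed libraries GRB10, KCNQ1, MEST and SNRPN were each called in at least 1 line, which left 4 of the 13 without a call, or 30.8%, where 45.3% of all genes at that level had none. GNAS, the gene of the stimulatory G protein alpha subunit, had DMSO means of 146 to 329 CPM and log2 changes of -0.44 to 0.33. NAP1L5, a nucleosome assembly protein gene, had DMSO means of 6.06 to 23.4 CPM in 4 lines and 0.0633 CPM in Loucy, with log2 changes of -0.09 to 0.43. L3MBTL1, a chromatin compaction gene, was at 4.69 to 9.23 CPM in 4 lines and 0.513 CPM in TALL-1. A missed threshold does not show that these levels were equal under both treatments.

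MEST and GRB10 were close to on or off by line. MEST, a paternally expressed hydrolase gene, averaged 51.9 CPM in decitabine and 52.5 CPM in DMSO in Loucy, and 16.0 and 18.3 CPM in PEER. In PER-117 it had 24 reads in decitabine and 1 in DMSO, a ratio of 19.1 with a counting interval of 3.12 to 786 (adjusted p = 0.0664), and it was called there without the mixed libraries (adjusted p = 0.00157). All 20 MEST reads of MOLT-16 DMSO were in the mixed replicate 3, against 5 reads over the MOLT-16 decitabine libraries. In TALL-1 the mixed replicate 3 held 10 of the 11 DMSO reads of MEST, against 2 reads over the decitabine libraries. The MEST log2 changes of -1.63 in MOLT-16 and -2.26 in TALL-1 were not called, and without the mixed libraries both lay above 0, again uncalled (adjusted p = 0.108 and 0.957). Reads on the strand opposite to MEST, where COPG2 lies, numbered 11287 against 5386 on the MEST strand, and the counts used here are stranded. GRB10, an adaptor that dampens insulin signalling, averaged 58.5 CPM in decitabine and 57.2 CPM in DMSO in PEER and 15.5 and 25.4 CPM in MOLT-16 (adjusted p = 0.346; called lower without the mixed libraries, adjusted p = 0.0145). In TALL-1 the mixed replicate 3 held 52 of the 56 DMSO reads, against 21 reads over the decitabine libraries. The GRB10 log2 change there was -1.29 (adjusted p = 0.217) and 1.69 without the mixed libraries (adjusted p = 0.0767), while the fit with no filter on low counts called it lower (-1.31, adjusted p = 0.0330). PER-117 had 12 GRB10 reads in decitabine and 0 in DMSO (adjusted p = 0.158), and was called higher without the mixed libraries (adjusted p = 0.00362) and with no filter (adjusted p = 0.00793).

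The untreated levels of all 18 tested members differed between the 5 lines in a test with 4 degrees of freedom, where 91.6% of all genes tested did. The adjusted p ran from 6.11e-14 for GRB10 to 0.0466 for BLCAP. KCNQ1OT1, for example, averaged 73.6 CPM in Loucy DMSO, 17.1 CPM in PER-117, 8.88 CPM in TALL-1, 6.53 CPM in MOLT-16 and 0.635 CPM in PEER. The ranges of TALL-1 and MOLT-16 overlapped, and those of Loucy, PER-117 and PEER lay apart from every other line. CDKN1C was under 1 CPM in the DMSO means of PEER, TALL-1 and Loucy, and was called with decitabine in PEER and Loucy and not in TALL-1. The ranges over their DMSO libraries overlapped, for PEER only through its mixed library. Without the mixed libraries the highest PEER value was 0.157 CPM, under the lowest of TALL-1 (0.246 CPM) and Loucy (0.350 CPM).

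**Figure D5:**
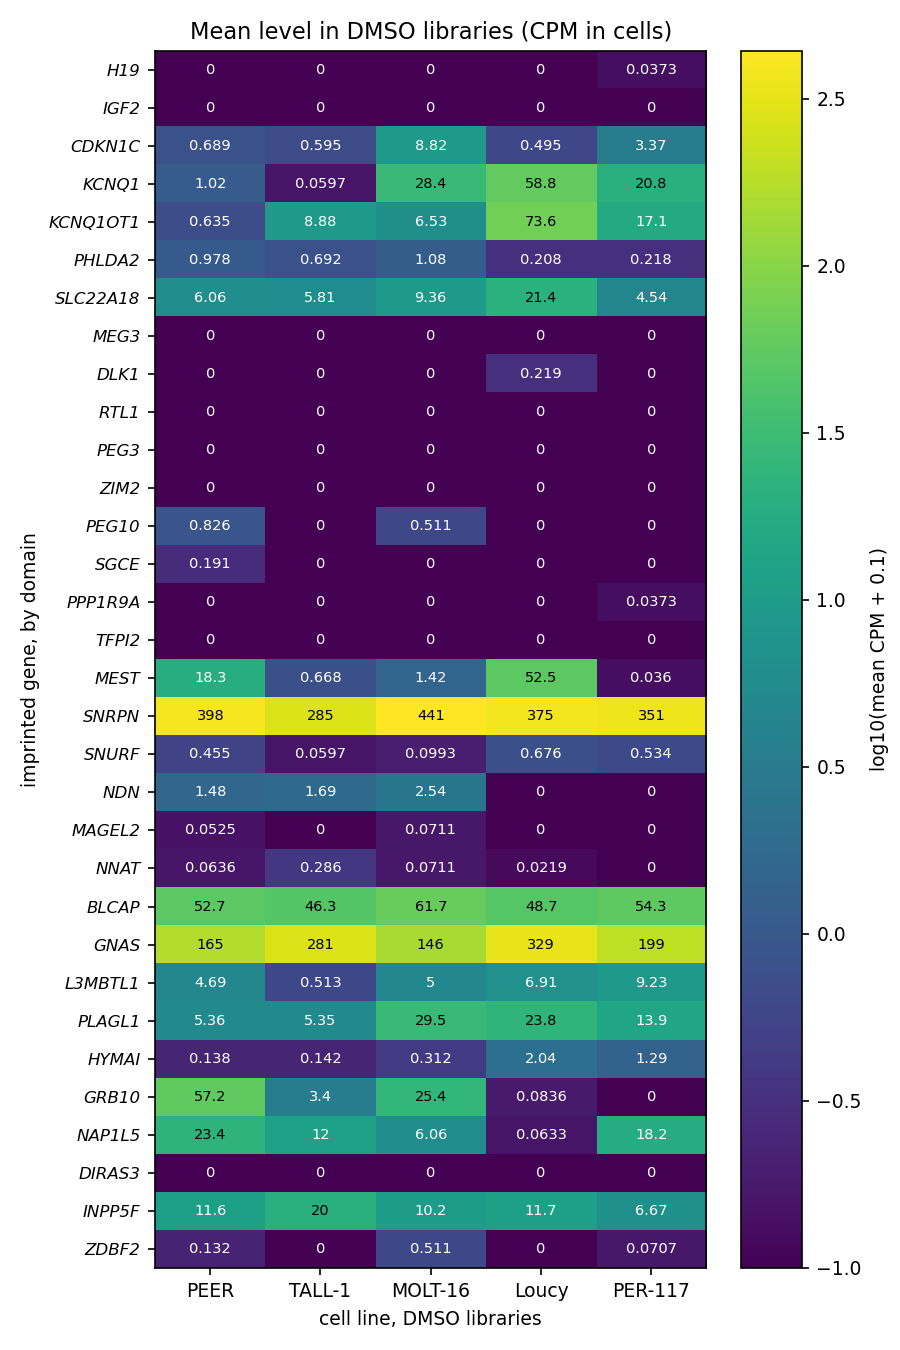
Colour gives log10 of the mean DMSO level plus 0.1 CPM, and the number in each cell the mean CPM of 3 DMSO libraries, for the 32 members (rows, by domain) in the 5 lines (columns). SNRPN, GNAS and BLCAP are high in every line, while MEST, GRB10, KCNQ1 and KCNQ1OT1 are on in some lines and near 0 in others.

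Several members stayed at or near 0 reads. H19, the maternally expressed noncoding RNA that shares a domain with IGF2, had 11 reads in all, 8 of them in PER-117 decitabine and 1 in PER-117 DMSO, a ratio of 6.37 with a counting interval of 0.854 to 283. PEG3, a zinc finger gene, had 9 reads, 8 in PER-117 decitabine and 1 in PEER decitabine. DIRAS3 had 1 read, in PER-117 decitabine, and ZDBF2 had 7 in decitabine and 10 in DMSO libraries. IGF2, RTL1, ZIM2 and TFPI2 had 0. For IGF2, the insulin-like growth factor gene, all of the last 500 exonic bases are shared with other annotated genes on its strand, so its 0 cannot be read as absence of its RNA. A total of 3 reads over a group corresponds to 0.0639 CPM in Loucy DMSO and 0.310 CPM in MOLT-16 decitabine, the deepest and shallowest groups, which bounds what a count of 0 allows in counting error alone.

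With the 5 lines taken as the replicates, each line's libraries being summed and the line kept as a block, none of the 16 members tested was called, against 0.0578% of all genes. By DESeq2 CDKN1C, PHLDA2 and PLAGL1 were called, which makes 3. With edgeR 5 had an unadjusted p under 0.05, namely CDKN1C, PHLDA2, PLAGL1, SLC22A18 and HYMAI. The share of all genes called by DESeq2 or under that unadjusted p is not given here, so these counts are a description only. CDKN1C had a log2 change of 3.31 ± 0.51 (adjusted p = 0.0593) and PHLDA2 of 3.45 ± 0.71 (adjusted p = 0.0873), with both genes higher in 4 of 5 lines. Without the mixed libraries both were called, CDKN1C at 3.53 (adjusted p = 0.0316) and PHLDA2 at 4.10 (adjusted p = 0.0265), where 0.57% of all genes were called.

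Among 50 other imprinted genes matched, 22 were tested. Those called in either direction were 6 in Loucy (27.3% of the 22, against 14.7% of all genes tested), 2 in TALL-1 (9.09% against 12.9%), 2 in PER-117 (9.09% against 11.8%), 2 in MOLT-16 (9.09% against 3.2%) and 1 in PEER (4.55% against 4.5%). All were higher except 1 in Loucy and 1 in MOLT-16. ASCL2, a transcription factor gene, had 20 reads in PEER decitabine and 20 in PER-117 decitabine against 0 in DMSO of each, at least 6.08-fold and 5.31-fold higher, and rose in Loucy by a log2 change of 2.26 ± 0.49 (adjusted p = 0.00221). SNHG14, the noncoding RNA that extends from SNRPN and runs antisense to UBE3A, rose in TALL-1 (55.9 CPM in decitabine and 28.0 CPM in DMSO, adjusted p = 1.90e-04) and in PER-117 (114 and 75.6 CPM, adjusted p = 0.0107). UBE3A fell in Loucy (124 and 174 CPM, log2 -0.49 ± 0.10, adjusted p = 0.00128), where SNHG14 was not called. WT1, TP73, ZFAT and PEG13 rose in Loucy by log2 changes of 2.23, 4.89, 1.38 and 4.99, WT1 also rose in MOLT-16 (1.30), ZNF264 rose in TALL-1 (0.48) and ZNF331 fell in MOLT-16 (-0.85). Of 86 tested protein-coding neighbours within 500 kb of a member and in neither list, PER-117 had 10 higher and 2 lower, Loucy 10 and 3, TALL-1 4 and 5, PEER 2 and 3, and MOLT-16 3 and 1. These neighbours were called at 14% in PER-117, 15.1% in Loucy, 10.5% in TALL-1, 5.81% in PEER and 4.65% in MOLT-16, beside the shares of all genes just given, with medians of -0.03 to 0.05 on the log2 scale.

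Of 15 genes that write, read or protect imprints, 12 were tested. Their values here include the mixed libraries, and a link between their changes and those of the members was not tested. In TALL-1 the maintenance methyltransferase DNMT1 stood at 335 CPM in decitabine and 877 CPM in DMSO (log2 -1.39 ± 0.31, adjusted p = 0.00295). UHRF1, which brings DNMT1 to newly copied DNA, fell by 1.31 on the log2 scale there, HELLS, a chromatin remodeller, by 1.18 and SMCHD1 by 0.55, and DNMT3B rose by 0.85. In Loucy DNMT3B fell by 1.06, the insulator protein gene CTCF by 0.55 and TRIM28, the partner of ZFP57, by 0.41. PER-117 had DNMT3A higher (0.45) and EHMT2 lower (-0.55), and MOLT-16 had no call. CTCFL, a germline relative of CTCF, had 96 reads in PEER decitabine, 77 in PER-117 decitabine and 27 in Loucy decitabine and 0 in DMSO of each line, at least 29.2-fold, 20.4-fold and 9.65-fold higher.

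Markers of other lineages moved with decitabine too, and their part in the results was not tested. In Loucy the 4 myeloid markers summed to 25.3 to 26.9 CPM in decitabine and 4.47 to 6.95 CPM in DMSO, and in PEER to 5.26 to 8.26 and 0 to 0.382 CPM. In the other 3 lines the myeloid sum stayed at or under 1.40 CPM in every library. The sum of the 4 stromal and epithelial markers in Loucy was 3.46 to 4.60 CPM in decitabine and 0.0584 to 0.205 CPM in DMSO. In PEER the stromal and epithelial sum was 14.7 to 16.2 CPM in decitabine and 6.61 to 11.6 CPM in DMSO. In TALL-1, MOLT-16 and PER-117 the treatments overlapped for this sum. The 4 B-cell markers summed to 1.99 to 2.95 CPM in PER-117 decitabine and 0.209 to 0.894 CPM in PER-117 DMSO, and the B-cell sum was 12.2 to 19.6 CPM in MOLT-16 decitabine and 3.83 to 9.38 CPM in MOLT-16 DMSO. In Loucy the B-cell sum was 59.7 to 64.4 CPM in decitabine and 39.4 to 55.8 CPM in DMSO, and in PEER and TALL-1 the treatments overlapped. The 4 erythroid markers summed to 1.14 to 2.03 CPM in PER-117 decitabine and 0 to 0.108 CPM in PER-117 DMSO, and 2 to 4 of them were at 0 in every group. In TALL-1 the erythroid sum was 0 CPM in decitabine and 0.492 to 1.07 CPM in DMSO. The 8 T-cell markers summed to 335 to 353 CPM in PER-117 decitabine and 561 to 578 CPM in PER-117 DMSO, and to 1520 to 1720 and 2173 to 2372 CPM in TALL-1. The T-cell sum was also lower with decitabine in Loucy (853 to 922 and 980 to 1070 CPM) and PEER (1273 to 1369 and 1442 to 1635 CPM). In MOLT-16 the treatments overlapped (1654 to 1952 and 1947 to 2673 CPM).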

How the data were processed

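RNA was measured in 30 libraries with a kit that sequences 3′ ends on the transcript's own strand, per the labels' protocols. The authors deposited raw read counts per gene in 3 columns per library, unstranded, on the gene's strand and on the opposite strand; all values were whole numbers, and the gene-strand column, 12.8 to 15.2 times the opposite one, was used. Alignment was with STAR 2.4.2a to GRCh38 and testing with DESeq2, per the submitters' processing notes; the release of the annotation was not given in the sources used here. Symbols and positions are from GENCODE 29. Reads that overlap 2 genes on a strand go uncounted, 1.73% to 2.66% of reads. Totals per library were 2197347 to 15391979 reads, and intervals and floors cover counting error only, as reads are not independent molecules.

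Groups were taken from the titles; for PEER DMSO, replicates 2 and 3 are exchanged between titles and file names, and titles were followed. No pair of libraries in a group agreed within sampling noise. Decitabine was compared with DMSO in each line, the 5 responses with each other and the untreated levels between lines, in a single edgeR 4.0.16 fit (R 4.3.3, limma 3.58.1) of 10 group means with TMM scaling, a minimum count of 10 in filterByExpr and 20 residual degrees of freedom. CPM use TMM-scaled library sizes; SE was obtained as the size of a log2 change over the root of its F. A fold against a group at 0 uses 3 reads over the group, and ratios with 1 to 3 reads carry 95% counting intervals. The script was tested on simulated data with 200 changed genes. Members, lists and tests were chosen with earlier results of these data known. Every member was accounted for: members called in a line are given by library, members without a call at or above 5 CPM by range, and the rest by reads; other imprinted genes and regulators are named where called. Alternatives were DESeq2 1.42.0, its size factors in edgeR, no filter, fits of only the libraries compared, a replicate block, unstranded counts, leaving out the 3 mixed libraries and leaving out each library; the comparison of pairs of responses, with and without the mixed libraries, was added after seeing the data.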

Additional observations from a re-analysis of the deposited data

Results flagged for a closer look

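The response to decitabine differed between the 5 lines for 3 of the 18 members tested, in the test of that difference itself. That is 16.7%, near the 13.6% of all genes tested, so the count is a description only. PHLDA2 had an adjusted p of 0.00440 in edgeR's test (0.0547, no longer called, without the mixed libraries), with higher levels in decitabine in 4 of 5 lines and log2 changes of -0.55 in TALL-1 to 5.28 in Loucy. NDN had an adjusted p of 0.0102, with reads in PER-117 decitabine against 0 in PER-117 DMSO and no call in the other lines. CDKN1C had an adjusted p of 0.0283, with log2 changes of -0.28 in TALL-1 to 4.92 in Loucy. Without the mixed libraries its adjusted p was 3.27e-04, with log2 changes of 0.16 in TALL-1 to 5.89 in PEER.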

How the results depend on the processing

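Of 664 values recomputed for the 18 calls of a member in a line, 625 kept their direction and their call, 39 kept the direction and lost the call, and none reversed. Most of these values came from fits that left out 1 library, in many cases a library of another line than the call. Counts of members called moved as follows. In PEER 4 were called, and 1 in the fit of the PEER libraries alone, with 3 to 5 on leaving out each library. In TALL-1 1 was called, 2 with no filter, and 0 to 3 on leaving out each library (0 without decitabine replicate 2, decitabine replicate 3 or DMSO replicate 3, and 3 without DMSO replicate 2). In MOLT-16 3 were called and 6 without the mixed libraries, with 3 to 4 on leaving out each library; in Loucy 4, with 3 to 5; and in PER-117 6, with 5 to 9. The responses differed for 3 members, 6 with no filter, 7 without the mixed libraries, 7 by DESeq2 and 2 to 6 on leaving out each library (5 without MOLT-16 DMSO replicate 2 and 6 without MOLT-16 DMSO replicate 3). Untreated levels differed for 18, and for 16 to 18 on leaving out each library. With lines as replicates 0 were called, 6 with no filter, 2 without the mixed libraries, 3 by DESeq2, and 0 to 2 on leaving out each library (1 without PEER decitabine replicate 1, PEER DMSO replicate 2 or MOLT-16 DMSO replicate 2, and 2 without TALL-1 DMSO replicate 3). The share of all genes called moved as well, for the responses from 13.6% to 27.8% without the mixed libraries. That share is not given for the other settings, so these counts are a description only. The cause of these moves was not tested.

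Same-numbered decitabine and DMSO libraries deviated together with correlations of -0.19 to 0.22, so the numbers did not pair the samples. With a replicate block the members called were 4 in PEER, 1 in TALL-1, 4 in MOLT-16, 4 in Loucy and 8 in PER-117, with 2 for the difference of responses and 17 for untreated levels. The share of all genes called with this block is not given either. Every library of PER-117 correlated best with its own number, a hint from the data and not from the design. Where reads were few, as for MEG3, H19, PEG3 and NNAT, depth limits what can be called.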
